A study of Mus musculus with 24 samples.

Results

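The replication-dependent histone genes were followed through cultured mouse lung adenocarcinoma cells in which either of 2 genes had been knocked down. They are the rows whose symbol names a clustered H1 (H1f1 to H1f5), H2A (H2ac), H2B (H2bc), H3 (H3c) or H4 (H4c) gene, without pseudogene symbols, and they numbered 63 of 38937 genes in the table of shRNA libraries and 61 of 39310 in the table of siRNA libraries. H2ac1 and H2bc1 had a row only in the shRNA table. By class there were 5 H1, 18 H2A, 16 H2B, 12 H3 and 12 H4 genes, of which 53 lie on chromosome 13 and 10 on chromosome 3.

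Each of 6 groups held 4 libraries. Among eIF2αA/A cells, which carry the alanine form of the translation factor eIF2α that cannot be phosphorylated by the kinases of the integrated stress response, 1 group had received an siRNA against Chchd10, a mitochondrial protein, and 1 a control siRNA. The same pair of siRNAs was given to eIF2αS/S cells, with the serine form. A further pair of eIF2αS/S groups had received an shRNA against Atf4, the transcription factor whose mRNA is translated when eIF2α is phosphorylated, or a scramble shRNA. The groups are called A/A siChchd10, A/A siControl, S/S siChchd10, S/S siControl, S/S shAtf4 and S/S shControl. Whether a sample is A/A or S/S is given only in the sample titles, on which every comparison of genotypes rests; the genotype label itself says WT or knockdown. All came from tumour cells sorted as GFP-positive and CD45-negative and then grown in culture, so they hold no tissue context, and the labels do not say how many tumours or clones stand behind them. The labels do not give a time after knockdown.

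In dividing cells the replication-dependent histone genes supply the histones that package newly copied DNA, and their mRNAs rise and fall with S phase. Their usual mRNA has no polyA tail: it ends just after a short stem-loop that is bound by the stem-loop binding protein Slbp. Some of these genes also make longer mRNAs with a polyA tail, which are known from cells that leave the cell cycle or differentiate. The labels name a total RNA library kit and, as the molecule, polyA RNA, so which of these forms the libraries kept is not settled by the labels. Counts per gene join both forms.

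The stem-loop is shown first because it marks the mRNA end that polyA selection would miss. A 16-base stem-loop motif, read 5′ to 3′ as GG, 2 bases of any kind, CTTTT, any base, AG, 2 bases of any kind and CC, was searched on the sense strand of the GENCODE transcripts (GRCm38), and 40 of the 63 histone genes held it, against 56 of 58731 protein-coding transcripts of other genes (0.0953%). The commonest form stood in 24 genes of the H1, H2A, H2B and H3 classes. H4 genes held forms of their own, of which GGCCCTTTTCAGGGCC was found in 6. No match was found in H2bc21, H2bc4, H3c8 or H4c12, which says only that these letters are not in the annotated transcripts. Of the 40 matches, 22 lay at most 100 bases from the end of the annotated transcript. The genes printed are, in each class, the gene with a match that had the highest mean level over the siRNA libraries, not scaled to gene length. An example of each other form was added. Capitals mark the stem-loop. The sites are H1f2 at chr13:23739506-23739535 (+), H2ac7 at chr13:23574889-23574918 (+), H2ac20 at chr3:96220410-96220439 (-), H2bc6 at chr13:23585523-23585552 (-), H3c4 at chr13:23576238-23576267 (+), H3c3 at chr13:23745039-23745068 (-), H4c8 at chr13:23531452-23531481 (+), H4c9 at chr13:22040958-22040987 (-) and H4c11 at chr13:21735431-21735460 (+).
H1f2: ccaaaaGGCTCTTTTCAGAGCCaccactcc
H2ac7: aacaaaGGCTCTTTTCAGAGCCatccactt
H2ac20: caaaaaGGCTCTTTTTAGAGCCaccaaatc
H2bc6: accaaaGGCTCTTTTCAGAGCCacccaaca
H3c4: cccaaaGGCTCTTTTCAGAGCCacccccgt
H3c3: aaaaaaGGCTCTTTTAAGAGCCacctaaga
H4c8: accaaaGGCCCTTTTCAGGGCCgcccacat
H4c9: cttaaaGGCCCTTTTTAGGGCCaccacaaa
H4c11: cctaaaGGTCCTTTTCAGGACCaccacatc
In H2ac7, H4c8, H2ac20 and H3c3 the annotated transcript ended 42, 46, 57 and 74 bases past the stem-loop. In H4c9, H4c11, H3c4, H1f2 and H2bc6 the longest annotated transcript went on for 330, 385, 752, 840 and 1861 bases past it.

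Promoters are shown because many H2A and H2B genes share one. In the tables used here 12 H2A and H2B pairs were transcribed away from each other. H2ac6 and H2bc4, 239 bases apart, and H2ac20 and H2bc21, 191 bases apart, hold the leading H2B genes of these cells. The windows run from 250 bases before to 50 after the start of the H2A gene (RefSeq, GRCm38.p6), at chr13:23683910-23684209 (-) for H2ac6 and chr3:96220831-96221130 (-) for H2ac20. Capitals mark 3 motifs, searched on both strands: ATTTGCAT, the octamer known from H2B promoters, CCAAT, and TATAAA.
H2ac6: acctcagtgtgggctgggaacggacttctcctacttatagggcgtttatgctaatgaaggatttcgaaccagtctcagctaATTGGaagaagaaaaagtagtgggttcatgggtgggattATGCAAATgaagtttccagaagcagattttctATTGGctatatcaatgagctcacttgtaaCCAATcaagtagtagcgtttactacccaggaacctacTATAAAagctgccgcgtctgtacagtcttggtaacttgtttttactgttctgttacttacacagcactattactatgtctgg
H2ac20: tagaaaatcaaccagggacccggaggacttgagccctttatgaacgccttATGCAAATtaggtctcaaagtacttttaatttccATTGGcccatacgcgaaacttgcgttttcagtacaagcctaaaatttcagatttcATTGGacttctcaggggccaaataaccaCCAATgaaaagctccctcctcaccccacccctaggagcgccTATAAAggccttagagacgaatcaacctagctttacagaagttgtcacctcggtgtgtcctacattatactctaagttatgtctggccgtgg
The octamer lay 130 bases before the start of H2ac6 and 200 before that of H2ac20. The latter site is past the 191 bases between the pair and lies just inside the annotated H2bc21 gene. ATTTGCAT stood in 7 of 15 H2B promoters (46.7%) and 6 of 17 H2A promoters (35.3%). It was in none of the H1, H3 and H4 promoters, and in 1.74% of all 32851 promoters of the same length. CCAAT stood in 86.2% of the 58 histone promoters, against 37.4% of all promoters, being in 27.3% of H4 promoters and in every promoter of the other classes. TATAAA stood in 58.6%, against 13.6% of all promoters. These matches describe the letters and were not tied to any change below.

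Library totals ran from 14067290 to 70932804 counts in the shRNA table and from 42863650 to 75409451 counts in the siRNA table, and levels are given as counts per 1000000 counts after TMM scaling (CPM). Atf4 stood at 302, 237, 319 and 225 CPM in S/S shAtf4, against 565, 835, 818 and 498 CPM in S/S shControl (log2 fold change -1.33, edgeR adjusted p 0.0327). Chchd10 fell by 2.76 on the log2 scale in S/S siChchd10 and by 2.27 in A/A siChchd10 (adjusted p 5.12e-16 and 2.26e-13). In A/A siControl it was already low, at 7.97 to 10.2 CPM, against 38.1 to 46.0 CPM in S/S siControl. S/S siChchd10 held 5.34 to 6.82 CPM of it and A/A siChchd10 1.37 to 2.15 CPM. In both shRNA groups the replicate 4 libraries stood apart from the other 3 in several histone genes, so those values are given with and without them. Of the markers of the labelled cell type, the keratins Krt8 and Krt18 each averaged at least 962.5 CPM in every group. The epithelial marker Epcam averaged 1.44 CPM in A/A siControl and 2.57 CPM in A/A siChchd10, against 8.93 to 36.7 CPM in the S/S groups. Cdh1 went the other way, at 982.2 and 1194 CPM in the same A/A groups, against 319.2 to 746.8 CPM in the S/S groups. The lung factor Nkx2-1 was at 0 in all shRNA libraries, and the surfactant gene Sftpc averaged at most 3.8 CPM in any group. Summed over 8 leukocyte markers, levels averaged 2.04 to 4.36 CPM over the groups, and Ptprc, which codes for CD45, averaged at most 0.168 CPM. Summed over 7 fibroblast markers, levels averaged 2.33 ± 0.0794 CPM in A/A siChchd10, 4.96 ± 0.306 in A/A siControl, 6.48 ± 0.939 in S/S siChchd10 and 5.0 ± 0.382 in S/S siControl (SD, n = 4 each). A/A siChchd10 (2.23 to 2.4 CPM) did not overlap with A/A siControl (4.53 to 5.25 CPM). Col1a1 alone made up most of these sums, at 2.23, 4.84, 6.0 and 3.92 CPM in the same 4 groups. Every other fibroblast marker averaged at most 0.617 CPM in them. Nkx2-1 averaged 130.6, 114.6, 35.1 and 37.4 CPM in the same 4 groups, and Sftpc averaged 3.8 CPM in A/A siChchd10 and 0.0912 CPM in A/A siControl. The part of these markers in the histone values was not tested.

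Few reads came from the histone genes, and 3 genes supplied most of them. Summed over all members, levels averaged 224.3 ± 7.13 CPM in A/A siChchd10, 133.1 ± 8.97 in A/A siControl, 130.0 ± 6.33 in S/S siChchd10 and 100.2 ± 5.39 in S/S siControl (SD, n = 4 each). H2bc21 and H2bc4, which code for H2B, and H1f2, which codes for the linker histone H1.2, made up 74.0% of that sum in A/A siChchd10, 80.9% in A/A siControl, 85.3% in S/S siChchd10 and 83.7% in S/S siControl. The share of H2bc21 alone was 24.6%, 40.0%, 51.1% and 58.0% in the same 4 groups. For scale, the 6 Mcm2 to Mcm7 genes, the DNA helicase of replication and a polyadenylated sign of S phase, summed to 1256 to 1701 CPM on average.

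Per kilobase of exon, the highest mean levels over the 16 siRNA libraries were those of H2bc4 (34.4 CPM per kb), H2bc21 (22.2), H1f2 (12.3), H4c8 (6.66) and H4c9 (6.05). All but H4c8 have an annotated 3′ UTR over 200 bases, the limit used here for a long one, as 19 of the 63 members do. In RefSeq coordinates (GRCm38.p6), H2bc21 at chr3:96221072-96223738 (+) has a 3′ UTR of up to 2192 bases in GENCODE. H2bc4 at chr13:23684199-23692480 (+) has 1 GENCODE transcript, spliced from 2 exons, with a 3′ UTR of 742 bases. H1f2 at chr13:23738807-23739531 (+) has one of up to 880 bases in GENCODE. The median was 0.378 CPM per kb over the 19 genes with a long 3′ UTR (range 0.00196 to 34.4) and 0.432 over the 42 others (0.0362 to 6.66). The exon length used as divisor includes the 3′ UTR, as in H1f3, where up to 4931 of 7425 exon bases are 3′ UTR. That lowers the values of genes with a long one, so these medians do not show how level goes with 3′ UTR length. In the shRNA table, which was normalised separately, H4c9 (5.64 CPM per kb), H2bc21 (5.48), H2bc4 (4.29), H1f2 (3.45) and H3c3 (1.7) led.

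**Figure D1:**
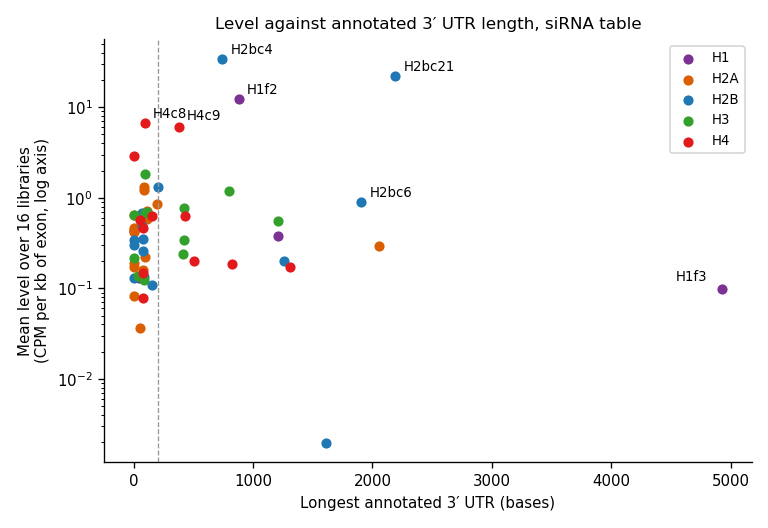
Mean level over the 16 siRNA libraries (CPM per kb of exon, log axis) against the longest annotated 3′ UTR (bases), 1 point per histone gene, coloured by class; the dashed line marks 200 bases. The 3 highest genes, from 12.3 to 34.4 CPM per kb, lie right of the line. The exon length includes the 3′ UTR, which lowers the values of genes with a long one.

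Much of the sequence in these genes is shared, which bears on every value below. In 28 of the 63 genes over 50% of the 75-base windows also occurred in another transcript outside the gene, so a count could come from a copy. The share was 0% in H2bc21, 6.66% in H1f2, 14.3% in H2bc6, 22.1% in H3c4, 22.4% in H4c9, 27.1% in H2bc4 and 42.4% in H4c8, and 100% in H3c14. In GENCODE the exons of H2bc6 and H1f4 overlap by 496 bases on the same strand, and GENCODE lists H2ac14 as an unprocessed pseudogene. In bulk RNA, a change in the number of cells in S phase and a change in histone mRNA per cell cannot be told apart.

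The first question was what loss of Chchd10 did to histone mRNA in cells that cannot phosphorylate eIF2α. In A/A cells the summed level of each of the 5 classes was higher in every siChchd10 library than in any siControl library, and 28 of the 42 members tested had every siChchd10 library above every siControl library (25.0% of all genes tested did). H4c8 rose most among the better-expressed members. With Chchd10 knocked down, 30 of 42 rose and none fell (26.5% of the 18138 genes tested rose, edgeR adjusted p under 0.05). The filter on low counts passed 42 of 61 members. Of these, 9 reached its cutoff in all 4 libraries of A/A siChchd10 and of no other group. The count of 30 and that of 28 with libraries apart thus both lean towards rises in that group. Without those 9, 21 of 33 rose. The filter needed any 4 libraries at the cutoff, so this split only approximates which members rest on A/A siChchd10. H2ac4, among the 9, could pass without that group, and H2bc7 and H2ac14, among the 33, could not. With no filter, 30 of 61 members rose against 14.0% of 35547 genes. Of the 36 members with an average log2 CPM under 1, 25 rose, against 13.8% of the 6034 genes that low, and 16 of 27 rose without those 9.

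H2bc4 stood at 74.7, 82.6, 80.3 and 78.2 CPM in the 4 A/A siChchd10 libraries, against 35.7, 35.8, 35.5 and 30.2 CPM in A/A siControl. The groups did not overlap, and the log2 fold change was 1.2 (SE 0.0706, adjusted p 2.52e-12). H1f2 stood at 32.3, 33.4, 33.2 and 28.7 CPM in A/A siChchd10 and at 19.9, 23.1, 20.3 and 17.1 CPM in A/A siControl. Every siChchd10 library was again above every control (0.66, SE 0.0827, adjusted p 4.14e-07).

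H4c8, an H4 gene at chr13:23531044-23531478 (+) with a short 3′ UTR of 93 bases, showed the largest rise of the 4 named by size. It stood at 8.88, 10.1, 8.77 and 9.17 CPM in A/A siChchd10, against 2.12, 2.19, 1.7 and 1.22 CPM in A/A siControl. The groups lay far apart, and the log2 fold change was 2.34 (SE 0.127, adjusted p 8.62e-15). H2bc6, an H2B gene, had 9.64, 8.81, 8.9 and 7.32 CPM in A/A siChchd10 and 3.16, 3.74, 3.31 and 2.81 CPM in A/A siControl. The groups lay apart (1.41, SE 0.118, adjusted p 6.3e-11). H3c4, which codes for H3, had 3.06, 3.8, 4.15 and 3.02 CPM in A/A siChchd10 and 1.21, 1.3, 1.49 and 1.11 CPM in A/A siControl, also with no overlap (1.45, SE 0.156, adjusted p 8.15e-09).

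By class, 4 of 4 H1 genes tested, 9 of 11 H2A, 3 of 8 H2B, 6 of 9 H3 and 8 of 10 H4 rose in A/A siChchd10. Without the 9 members set aside above, 4 of 6 H2A, 5 of 8 H3 and 5 of 7 H4 genes rose. The H1 and H2B counts were unchanged. In H1, H1f3 averaged 1.46 ± 0.065 CPM in A/A siChchd10 and 0.743 ± 0.0561 CPM in A/A siControl, and H1f4 and H1f5 rose by 0.93 and 0.95 on the log2 scale. H1f1, known from few tissues, averaged 0.143 and 0.088 CPM in the same groups and did not pass the filter. H2ac7, the H2A gene with the highest level per kb, had 1.74, 1.73, 1.47 and 1.54 CPM in A/A siChchd10 and 0.7, 0.909, 0.715 and 1.01 CPM in A/A siControl (log2 fold change 0.96, adjusted p 6.67e-05). H2bc21, the member with the largest share of histone counts in the control cells, was not called: its libraries held 53.9, 55.9, 55.7 and 55.2 CPM in A/A siChchd10 and 58.3, 51.3, 52.4 and 50.8 CPM in A/A siControl. These overlap, and the log2 fold change was 0.05 (SE 0.0464, adjusted p 0.357). Summed without H2bc21, the members averaged 169.1 CPM in A/A siChchd10 and 79.9 CPM in A/A siControl.

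**Figure D2:**
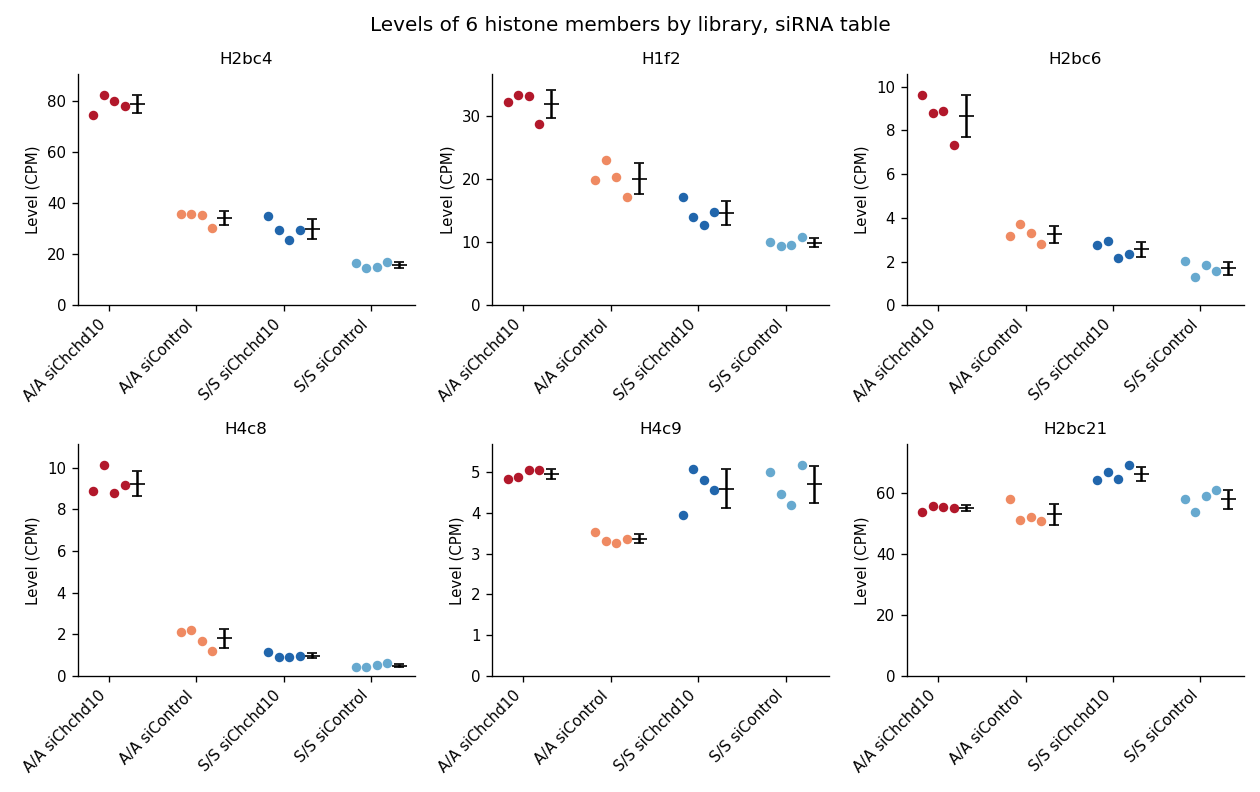
Level (CPM) of 6 histone genes in each siRNA library, with the mean and SD of each group of 4. H2bc4, H1f2, H2bc6 and H4c8 were highest in A/A siChchd10, while H2bc21 stayed between 50.8 and 69.2 CPM in all 16 libraries and H4c9 between 3.27 and 5.16 CPM.

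The S phase genes moved in the same direction with a smaller size. Mcm2 to Mcm7 all rose in A/A siChchd10, by 0.25 to 0.41 on the log2 scale, and their sum averaged 1553 ± 44.5 CPM in A/A siChchd10 and 1256 ± 43.9 CPM in A/A siControl (SD, n = 4 each). Of 46 S phase genes 28 rose and 4 fell. The median log2 fold change over the 46 was 0.2, over all genes -0.01, and over the 42 histone genes 0.95. It was 0.92 over the 33 histone genes left without the 9 set aside above. Slbp rose by 0.22, and of 22 genes of histone mRNA processing and transcription 11 rose and 4 fell. Of 28 G2/M genes, which act at mitosis, 2 rose and 10 fell, and of 20 histone chaperones 9 rose and 2 fell, where 27.2% of all genes fell.

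Other histones did not follow one direction. Of 11 replication-independent histones, whose mRNAs have polyA tails and are made through the cell cycle, 6 rose and 2 fell in A/A siChchd10. H2az1, which codes for the variant H2A.Z, rose by 0.23, H1f0, the linker histone of resting cells, fell by 0.29, and H3f3b, which codes for H3.3, stood at 0.01 (adjusted p 0.841). H3f3b turned to -0.01 and -0.02 under upper quartile scaling and total counts.

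The library method was looked at through RNAs that have no polyA tail and are not histones. Of 40 such RNAs 18 were tested, and in A/A siChchd10 none rose and 7 fell, again against 27.2% of all genes. Their sum averaged 20.8 ± 1.22 CPM in A/A siChchd10 and 27.9 ± 1.87 CPM in A/A siControl, so these RNAs were lower where the histone genes were higher. Histone genes with an annotated 3′ UTR of 200 bases or less summed to 28.3 ± 1.44 CPM in A/A siChchd10 and 12.1 ± 1.54 CPM in A/A siControl, and those with a longer one to 195.9 ± 6.5 and 121.0 ± 7.48 CPM in the same groups. Both kinds were higher in every A/A siChchd10 library than in any A/A siControl library. The part of polyA tails or library yield in these values was not tested.

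**Figure D3:**
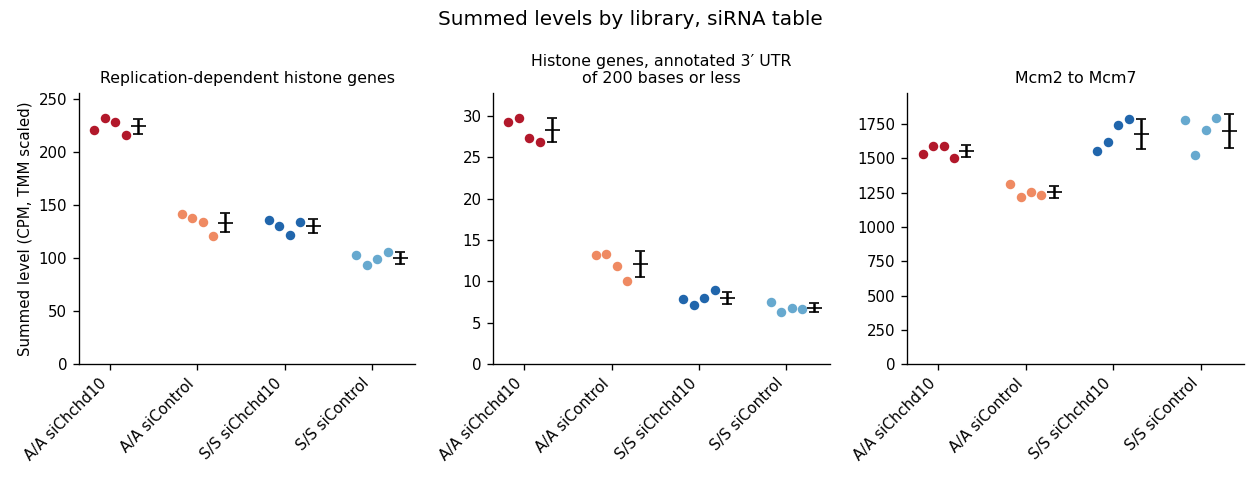
Summed level (CPM) in each siRNA library of all histone members, of those with an annotated 3′ UTR of 200 bases or less, and of Mcm2 to Mcm7, with the mean and SD of each group of 4. Both histone sums were highest in A/A siChchd10, at 216.3 to 232.2 CPM for all members, while the Mcm sum was lowest in A/A siControl.

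The same knockdown was then followed in S/S cells. S/S siChchd10 had 12 of 42 members higher than S/S siControl and none lower (15.0% of all genes rose), and the median over the 42 was 0.26 on the log2 scale against 0.00 over all genes. With no filter 11 of 61 members rose, against 7.59% of all genes, and of the 36 members with an average log2 CPM under 1, 7 rose, against 8.58% of genes that low. The count of 12 was 8 without S/S siChchd10 replicate 1 and 8 without S/S siChchd10 replicate 2. By class 1 H1, 2 H2A, 4 H2B, 3 H3 and 2 H4 genes rose.

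H2bc4 was again raised, at 35, 29.4, 25.5 and 29.6 CPM in S/S siChchd10 against 16.6, 14.7, 15.1 and 16.8 CPM in S/S siControl. No library overlapped (log2 fold change 0.92, SE 0.0771, adjusted p 3.83e-09). H1f2 had 17.2, 14.0, 12.7 and 14.8 CPM in S/S siChchd10 and 9.99, 9.33, 9.5 and 10.9 CPM in S/S siControl, likewise apart (0.56, SE 0.0918, adjusted p 4.9e-05). H4c8 and H2bc6 rose by 0.95 and 0.6 (adjusted p 0.000643 and 0.00196). H3c4 rose by 0.75 (adjusted p 0.0111), a call that was lost without S/S siChchd10 replicate 2. H3c8 rose by 0.71 with overlapping libraries (adjusted p 0.0441), a call lost without S/S siControl replicate 2 or 4 and without S/S siChchd10 replicate 1, 2 or 4.

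H2bc21 was also slightly higher here, at 64.4, 67.2, 64.6 and 69.2 CPM in S/S siChchd10 against 58.2, 53.8, 59.1 and 61.3 CPM in S/S siControl. The groups lay apart by a narrow gap (0.19, SE 0.0461, adjusted p 0.00212). H4c9 and H2ac7 were not called (-0.03 and 0.27, adjusted p 0.872 and 0.527). Mcm2 to Mcm7 stayed within -0.12 to 0.08 with no call, and of the 46 S phase genes none rose and 6 fell, close to the share of all genes that fell (13.0%). The members with a 3′ UTR of 200 bases or less summed to 7.99 ± 0.728 CPM in S/S siChchd10 and 6.83 ± 0.54 CPM in S/S siControl with overlapping libraries, and the longer ones to 122.0 ± 6.24 and 93.3 ± 5.12 CPM with none.

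Whether the knockdown acted more strongly on histone mRNA in A/A than in S/S cells was tested as the difference of the effects, A/A minus S/S. It was positive for 12 of 42 members and negative for none at an adjusted p under 0.05 (16.7% of all genes were positive). With no filter it was positive for 12 of 61 members, against 8.37% of all genes, and of the 36 low members for 8, against 4.46% of genes that low. Of the 12, 9 were among the 33 members outside the 9 set aside above.

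The largest of these differences among the better-expressed members was that of H4c8, at 1.39 (SE 0.248, adjusted p 6.86e-05). H2bc6 differed by 0.8 (SE 0.187, adjusted p 0.00125), H4c9 by 0.58 (SE 0.136, adjusted p 0.0013) and H2bc4 by 0.28 (SE 0.104, adjusted p 0.0403). The H2bc4 call was lost under upper quartile scaling, under total counts and in 8 of the 16 fits that left out 1 library, whereas those of H4c8, H2bc6 and H4c9 were kept in all of these. For H1f2 the difference was 0.1 (SE 0.124, adjusted p 0.574) and for H3c4 0.7 (SE 0.276, adjusted p 0.0501), so neither was shown to differ. H4c9 reached 4.82, 4.87, 5.04 and 5.05 CPM in A/A siChchd10, against 3.52, 3.3, 3.27 and 3.36 CPM in A/A siControl, and in S/S cells it held 3.94, 5.08, 4.81 and 4.55 CPM with siChchd10 and 4.99, 4.46, 4.18 and 5.16 CPM with siControl. The A/A siChchd10 values lay within the range of the S/S cells, and the A/A siControl values below it. Mcm2 to Mcm7 differed too, all 6 positive by 0.18 to 0.53, and Slbp by 0.21.

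**Figure D4:**
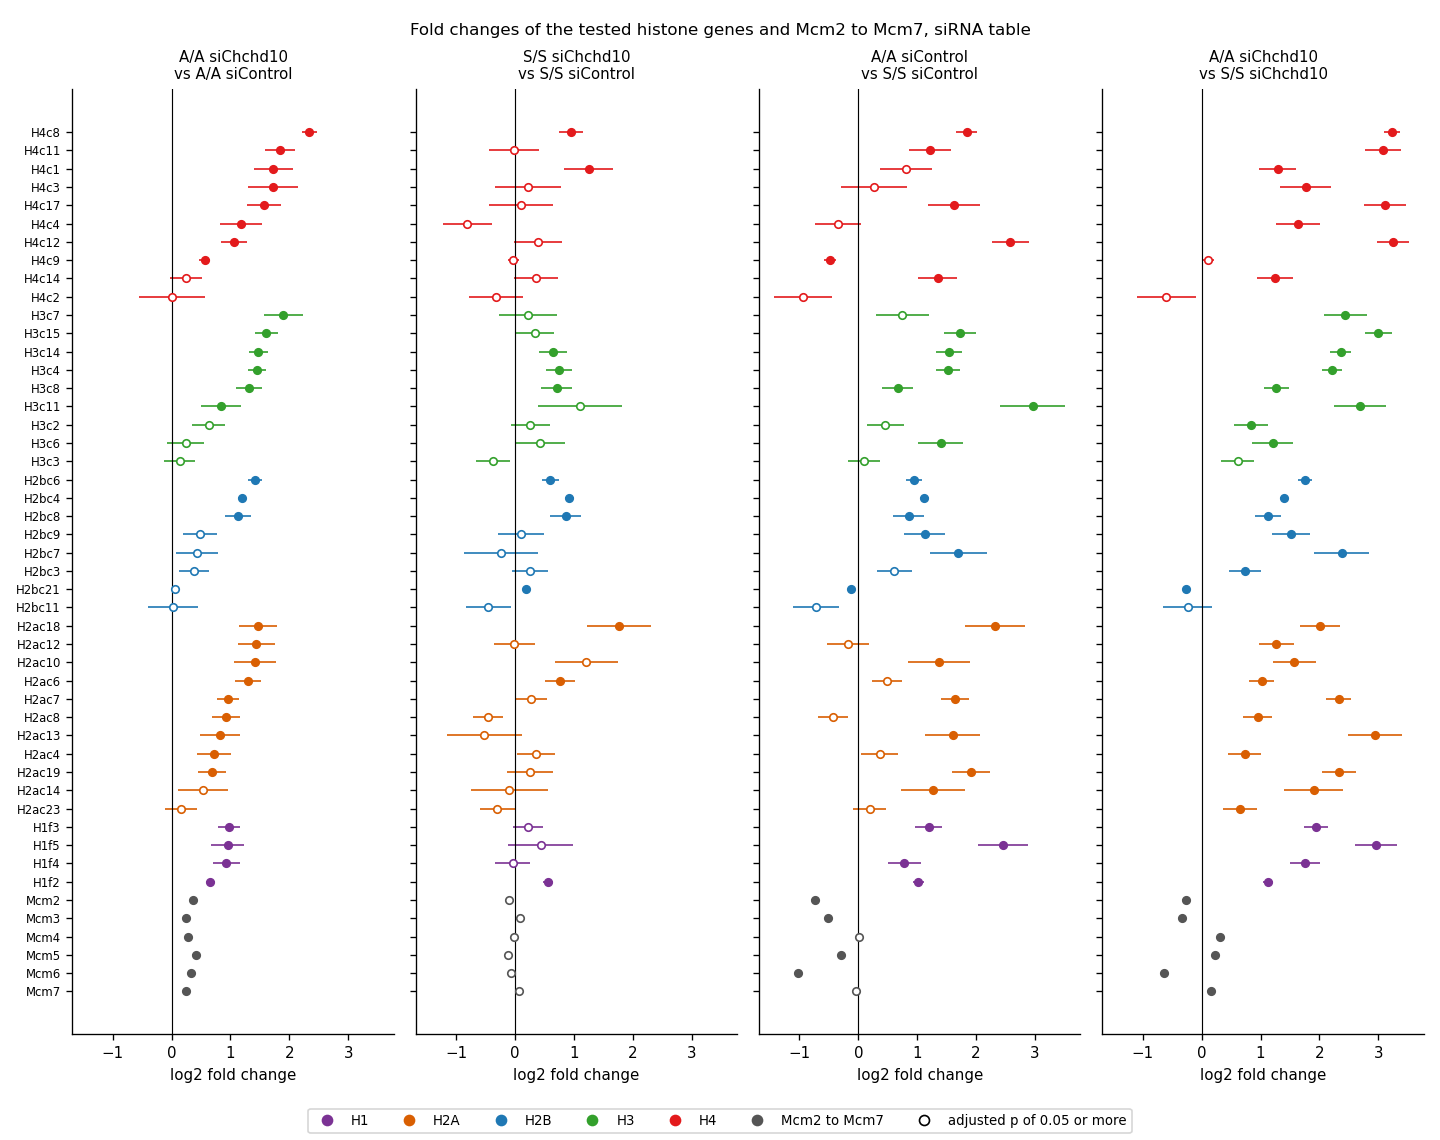
Log2 fold change with its SE for the 42 tested histone genes, coloured by class, and Mcm2 to Mcm7 (grey) in 4 comparisons; filled points have an adjusted p under 0.05. With siChchd10 in A/A cells the 42 histone points lie at or right of 0 with a median of 0.95, and in A/A against S/S cells most lie right of 0 while several Mcm genes lie left.

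The genotypes were then compared within each siRNA. A/A siControl had 26 of 42 members higher and 2 lower than S/S siControl (35.6% of all genes rose and 34.7% fell), and the median member stood at 1.07 on the log2 scale against 0.01 over all genes. With no filter 26 of 61 rose and 3 fell, against 19.1% and 18.8% of all genes. Of the 36 low members 22 rose, against 26.9% of genes that low. Of all genes 70.2% were called in either direction between these cells, and the labels do not say whether the A/A and S/S cells came from the same tumours. The rises were in all classes: 4 H1, 6 H2A, 5 H2B, 6 H3 and 5 H4 genes.

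H2bc4 and H1f2 rose by 1.12 (SE 0.0766) and 1.02 (SE 0.0899), with adjusted p of 6.87e-12 and 4.84e-10, and H4c8 by 1.84 (SE 0.183, adjusted p 4.94e-10). H1f5, which codes for H1.5, averaged 0.376 ± 0.0898 CPM in A/A siControl and 0.0679 ± 0.0461 CPM in S/S siControl (2.46, SE 0.423, adjusted p 8.13e-06). H4c12, an H4 gene with 68.1% of its windows shared, had 1.25, 1.32, 1.08 and 0.514 CPM in A/A siControl and 0.118, 0.148, 0.209 and 0.213 CPM in S/S siControl, and the groups did not overlap (2.58, SE 0.314, adjusted p 2.64e-08). The 2 that fell were H4c9, with libraries apart (-0.48, SE 0.0986, adjusted p 9.29e-05), and H2bc21, with libraries that overlap (-0.13, SE 0.0465, adjusted p 0.017). The count of falls was 4 without A/A siControl replicate 1, and 1 without S/S siControl replicate 4, A/A siControl replicate 2 or A/A siControl replicate 4.

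S phase genes went the other way in this comparison. Of 46, 4 rose and 35 fell, and Mcm6, Mcm2, Mcm3 and Mcm5 fell by 1.03, 0.74, 0.51 and 0.29 on the log2 scale, while Mcm4 and Mcm7 (0.01 and -0.04) were not called. Slbp fell by 0.68, and of the G2/M genes 2 rose and 19 fell. Most histone genes tested were thus higher, and most S phase genes lower, in A/A siControl than in S/S siControl. The non-histone RNAs without a polyA tail summed to 27.9 ± 1.87 CPM in A/A siControl and 25.9 ± 2.57 CPM in S/S siControl, and of 18 tested 1 rose and 1 fell.

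With Chchd10 knocked down in both genotypes, 37 of 42 members were higher in A/A siChchd10 than in S/S siChchd10 and 1 was lower (34.7% of all genes rose and 35.8% fell). The 9 members set aside above are all among the 37, and of the other 33, 28 rose and 1 fell. With no filter 40 of 61 rose, against 19.3% of all genes. The median stood at 1.60 on the log2 scale over the 42 and at 1.40 over the 33. Of the 36 low members 33 rose, and of the 27 left without those 9, 24 rose, against 24.0% of genes that low. H4c8 was higher by 3.23 (SE 0.139, adjusted p 3.03e-18), with 8.77 to 10.1 CPM in A/A siChchd10 and 0.896 to 1.15 CPM in S/S siChchd10. H2bc6, H2bc4 and H1f2 were higher by 1.76, 1.4 and 1.12, and H2bc21 was lower (-0.27, SE 0.0461, adjusted p 8.64e-06). Here Mcm4, Mcm5 and Mcm7 were higher by 0.31, 0.23 and 0.15, while Mcm6, Mcm3 and Mcm2 were lower (-0.64, -0.33 and -0.27).

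Read over the 4 siRNA groups, 52 of the 61 members had their highest mean in A/A siChchd10, and 35 had their lowest in S/S siControl. In 28 the means ran from A/A siChchd10 through A/A siControl and S/S siChchd10 down to S/S siControl. In H3c4, H4c8 and H3c14 no library of any group overlapped with the next in that order. H2bc21 ran against it, with its highest mean in S/S siChchd10. The 61 members include the 19 that did not pass the filter on low counts, and the same orders were not counted over all genes. Of all genes tested, 26.5% were higher in A/A siChchd10 than in A/A siControl and 34.7% higher than in S/S siChchd10. Both genes were tested in 3 of the H2A and H2B pairs that face each other across a shared promoter. H2ac6 and H2bc4 rose by 1.3 and 1.2 on the log2 scale in A/A siChchd10 and by 0.77 and 0.92 in S/S siChchd10. H2ac8 and H2bc8 rose by 0.92 and 1.13 in A/A siChchd10, and stood at -0.46 (adjusted p 0.193) and 0.86 (adjusted p 0.0142) in S/S siChchd10. H2ac7 rose by 0.96 in A/A siChchd10 while H2bc7 stood at 0.43 (adjusted p 0.323), and in S/S siChchd10 neither was called (0.27 and -0.24). The pairs and H3c14, and H4c12 in the comparison of A/A siControl with S/S siControl, were named after their values were seen.

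Loss of Atf4 in S/S cells left the histone genes below the threshold. Only 9 of the 63 members passed the filter, and each library held 418 to 2991 histone counts in S/S shAtf4 and 1124 to 2966 in S/S shControl. None of the 9 was called in either direction by edgeR, against 0.538% of the 14697 genes tested, none had an unadjusted p under 0.05, and DESeq2 called none. All 9 had a negative log2 fold change, from -0.46 to -0.12, with a median of -0.37, against -0.005 over all genes.

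Replicate 4 of both groups held far more H2bc4 and H1f2 than the others. H2bc4 had 2.14, 1.18, 1.89 and 11.2 CPM in S/S shAtf4 replicates 1 to 4, against 3.81, 2.96, 2.56 and 13.9 CPM in S/S shControl. The groups overlap through the replicate 4 libraries, and the shAtf4 library of each number was below the shControl library of that number. H1f2 had 3.13, 1.8, 1.85 and 11.5 CPM in S/S shAtf4 and 3.84, 2.99, 3.59 and 14.4 CPM in S/S shControl, again lower in shAtf4 at each number. H2bc21 had 12.4, 16.5, 11 and 10.2 CPM in S/S shAtf4 and 18.4, 16.7, 17.9 and 11.7 CPM in S/S shControl, and was not high in replicate 4.

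Same-numbered libraries deviated together, so the replicate number was also fitted as a block. Then 3 of the 9 members fell and none rose (10.1% of all genes fell): H2bc4 by 0.65, H1f2 by 0.54 and H2bc21 by 0.37 on the log2 scale, with adjusted p of 0.0209, 0.0311 and 0.0373. With both replicate 4 libraries left out and no block, the log2 fold changes were -0.86 for H2bc4 (adjusted p 0.0668), -0.64 for H1f2 (adjusted p 0.136) and -0.41 for H2bc21 (adjusted p 0.1), and no member was called. Without S/S shControl replicate 4 alone H2bc4 and H1f2 turned to 0.47 and 0.46.

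Over the shRNA libraries the summed histone level was 29.8, 31.8, 26.9 and 52.2 CPM in S/S shAtf4 and 40.8, 33.2, 41.2 and 68.2 CPM in S/S shControl. The groups overlap, but within each of the 4 replicate numbers the shAtf4 library was the lower one. The Mcm2 to Mcm7 sum averaged 1853 ± 99.8 CPM in S/S shAtf4 and 1653 ± 232.3 CPM in S/S shControl, with overlap, and no Mcm gene was called without the block. With it Mcm2, Mcm6 and Mcm7 rose by 0.23, 0.18 and 0.22. None of the 46 S phase genes was called without the block, and 10 rose with it, where 1487 of all 14697 genes tested rose. The non-histone RNAs without a polyA tail summed to 28.6, 32.1, 27.4 and 39.6 CPM in S/S shAtf4 and 24.0, 25.4, 23.2 and 32.3 CPM in S/S shControl, highest in replicate 4 of each group and higher in shAtf4 within each of the 4 replicate numbers. Their part in the replicate 4 values was not tested.

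**Figure D5:**
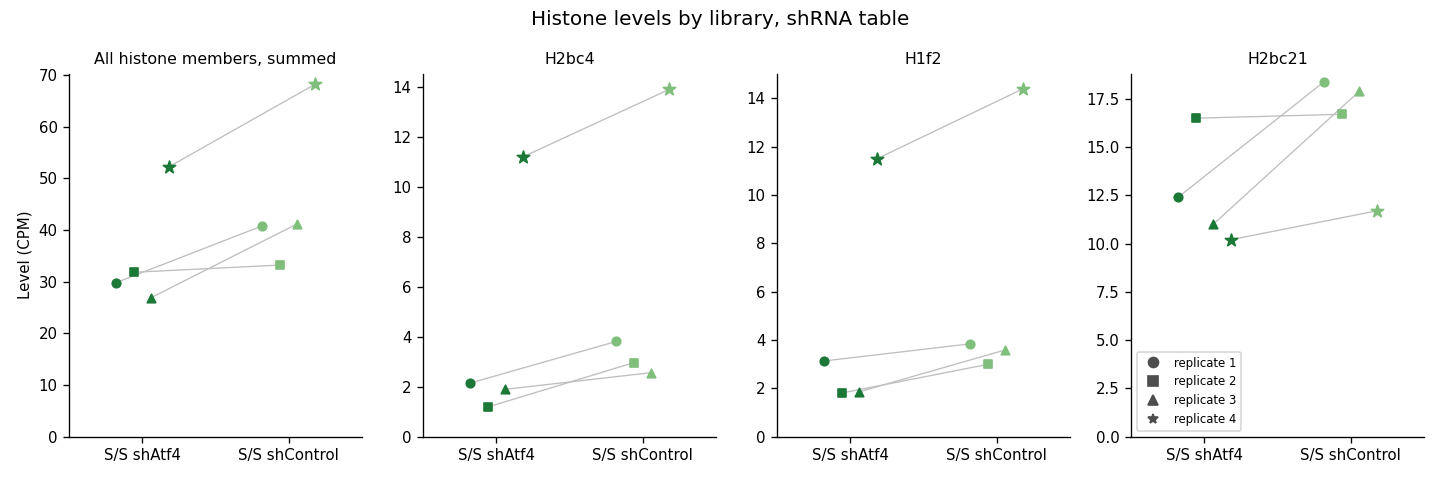
Level (CPM) in each shRNA library of all histone members summed and of H2bc4, H1f2 and H2bc21, with a line joining libraries of the same replicate number and a star for replicate 4. The stars stand highest for the sum, H2bc4 and H1f2, at 11.2 and 13.9 CPM for H2bc4, and lowest for H2bc21.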

How the data were processed

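RNA-seq libraries of 24 samples in 6 groups of 4 were used. The authors deposited raw counts per gene in 2 tables, 8 shRNA and 16 siRNA libraries; the labels' protocols name Trizol extraction, the TruSeq Stranded Total RNA kit and a NovaSeq sequencer. The submitters' processing notes name mm10 and DESeq2 1.24.0. Which aligner, counting program, strand setting and annotation were used is not given in the sources used here. Columns without a sample numbered 0.

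Counts were tested with edgeR 4.0.16 (R 4.3.3, limma 3.58.1): filterByExpr, TMM scaling, quasi-likelihood tests, Benjamini-Hochberg adjustment over all 14697 or 18138 genes tested, threshold 0.05. The 16 siRNA libraries shared a model with 1 term per group. The code was tested on simulated data. Alternatives were DESeq2 1.42.0, other scalings, no filter, a replicate block, compared groups only, and leaving out libraries. Same-numbered shRNA libraries deviated together (correlations 0.373 to 0.871 over genes, from the data), whereas siRNA libraries did not (-0.26 to 0.367). Replicates differed beyond counting noise. The labels do not say whether libraries came from separate cultures, so p-values measure only the spread between these samples.

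Coordinates and sequences are from GENCODE M21 and RefSeq on GRCm38, counted from 1. The members and lists were chosen with earlier results of these data known. Named genes were the 4 largest rises and falls per comparison among called members whose average log2 CPM reached 1, the 2 members of each class highest per kb, H1f1 to H1f5, Mcm2 to Mcm7, Slbp, H2az1, H3f3b, H1f0 and the targets.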

Additional observations from a re-analysis of the deposited data

Results flagged for a closer look

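In 172 groups of 4 libraries, values were tested for a library far from the other 3, which chance gives in about 1 in 20. That rate need not hold where counts are few. H1f1 had 4 counts in S/S shAtf4 replicate 4, 11 in A/A siChchd10 replicate 3 and 0 in S/S siChchd10 replicate 1. In the shRNA table, replicate 4 stood out most often. In S/S shAtf4 replicate 4, H1f1 was at 0.0698 CPM (the others at 0), H1f2 at 11.5 (others 1.8 to 3.13), H2bc4 at 11.2 (others 1.18 to 2.14), and the sum of members other than H2bc21, H2bc4 and H1f2 at 19.3 (others 12.1 to 12.3). In S/S shControl replicate 4, H1f2 was at 14.4 CPM (others 2.99 to 3.84), H1f5 at 1.29 (0.14 to 0.261), H2bc4 at 13.9 (2.56 to 3.81), H3c11 at 0.993 (0.0733 to 0.165), H4c12 at 1.05 (0.183 to 0.33) and Slbp at 85.2 (70.2 to 72.2). In S/S shAtf4 replicate 2, H2ac13 was at 0.507 CPM (others 0.214 to 0.258).

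In the siRNA table H1f0 was at 436.9 CPM in S/S siChchd10 replicate 4 (others 402.6 to 406.5). H1f1 was at 0.234 CPM in A/A siChchd10 replicate 3 (others 0.102 to 0.118) and at 0.0 in S/S siChchd10 replicate 1 (others 0.0835 to 0.0997). H1f4 was at 0.235 CPM in S/S siControl replicate 4 (others 0.456 to 0.5), and H2bc4 at 30.2 CPM in A/A siControl replicate 4 (others 35.5 to 35.8). Mcm6 was at 202.6 CPM in A/A siControl replicate 1 (others 180.5 to 181.8).

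The effect of siChchd10 on a gene differed between genotypes (A/A minus S/S, log2, edgeR interaction with adjusted p) for 12 histone genes. In H2B these were H2bc4 by 0.28 (0.0403) and H2bc6 by 0.8 (0.00125), in H1 H1f4 by 0.97 (0.049989), and in H2A H2ac8 by 1.38 (0.00282) and H2ac12 by 1.45 (0.0179). In H3 they were H3c7 by 1.69 (0.0318), H3c14 by 0.82 (0.0319) and H3c15 by 1.27 (0.0124). In H4 they were H4c4 by 1.98 (0.00536), H4c8 by 1.39 (6.86e-05), H4c9 by 0.58 (0.0013) and H4c11 by 1.86 (0.00451). Some rest on few counts: H4c4 had 18 to 25 per library in A/A siChchd10 and 3 to 12 in the other siRNA groups. H4c4, H3c7 and H2ac12 are among the 9 members set aside above. Of the other genes, Mcm2 differed by 0.47 (0.000102), Mcm3 by 0.18 (0.0449), Mcm4 by 0.29 (0.00151), Mcm5 by 0.53 (1.49e-05), Mcm6 by 0.4 (5.2e-05) and Mcm7 by 0.19 (0.0324). Slbp differed by 0.21 (0.0262), H1f0 by -0.38 (8.66e-05) and Chchd10 itself by 0.49 (0.0205).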

How the results depend on the processing

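Depth limits most members: 6 of 61 in the siRNA table and 4 of 63 in the shRNA table reached an average log2 CPM of 1. Of the histone calls, 27 to 29 of 30 were kept in A/A siChchd10 when 1 library was left out, 8 to 12 of 12 in S/S siChchd10 and 8 to 12 of 12 in the difference. Between genotypes 24 to 28 of 28 were kept with siControl and 36 to 38 of 38 with siChchd10. The replicate block gave 10, 27 and 12 rises for S/S siChchd10, A/A siChchd10 and the difference, and 26 rises and 2 falls, and 37 rises and 1 fall, between genotypes. A fit on the compared groups alone was run for A/A siChchd10 vs A/A siControl, where it kept 30 of 30 calls, and for A/A siControl vs S/S siControl, where it kept 21 of 28 and lost H2bc7, H3c8, H2ac10, H4c17, H2ac14, H2ac13 and H2ac18. The difference uses all 16 libraries, so this fit is the same as that reported, and it was not run for the other comparisons. In the difference, leaving out 1 library ended the call of H1f4 in 10 of 16 fits, of H2bc4 in 8, of H3c7 in 7 and of H3c14 in 5.

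In S/S shAtf4 vs S/S shControl, histone members lower numbered 3 with the replicate block, against 0 without it. All genes called numbered 79, with 491 by DESeq2, 2969 with the block, 1726 with both replicate 4 libraries left out, and 13 to 536 with 1 library left out (536 without S/S shControl replicate 4). For the difference of siChchd10 effects, A/A minus S/S, histone members lower numbered 1 under upper quartile scaling and under total counts only, against 0. For A/A siControl vs S/S siControl, histone members lower numbered 1 to 4 with 1 library left out, against 2.

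Log2 fold changes that changed sign were small or not called. With 1 library left out, S/S shAtf4 vs S/S shControl gave -0.46 to 0.01 for H3c3, -1.44 to 0.46 for H1f2, -1.71 to 0.47 for H2bc4, -0.36 to 0.2 for H2ac8 and -0.05 to 0.14 for Mcm4. S/S siChchd10 vs S/S siControl gave -0.08 to 0.04 for H4c9, -0.45 to 0.03 for H2ac23, -0.34 to 0.18 for H1f4, -0.06 to 0.03 for Mcm4 and -0.04 to 0.05 for Slbp. A/A siControl vs S/S siControl gave -0.02 to 0.53 for H2ac23 and -0.04 to 0.04 for Mcm4. H3f3b in A/A siChchd10 vs A/A siControl was -0.01 under upper quartile scaling and -0.02 under total counts only. The cause was not tested.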
